A study of Rattus norvegicus with 35 samples.

Results

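The 10 genes described here encode plasma and acute-phase proteins, A1bg, A2m, Ahsg, Fetub, Alb, Cp, Hp, Orm1, Ttr and Apoe, and were measured in the olfactory epithelium of Brown Norway rats. They were chosen by name after their levels in these arrays were known, and every probe carrying one of these symbols was taken, 17 of the 41012 probes on the array. The samples were 35 single-dye arrays of 27 rats: 4 newborn pups of litter L1 and 5 each of litters L2, L3 and L4, all 3 to 5 days old, 4 adult males of 9 weeks and 4 old males of 22 months. The sex of the pups was not known. Each pup gave 1 array, from 1 side of the nose. Each adult and old rat gave 2, A and B, from its left and right epithelium, which were averaged so that the rat is the replicate. The pups were bought with their mothers, and the old rats had aged in the animal house. RNA came from the whole dissected epithelium, which does not tell which cells held a transcript, and fewer cells of a type and less RNA per cell cannot be told apart. A level is the log2 of the background-subtracted signal over the median signal of its array. A level of 0 is therefore that of the median probe, and -6.64 is the floor at which lower signals were set. Since the members and this measure were chosen on the same arrays, their levels by age are a description and were not tested.

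Plasma proteins are made mostly by hepatocytes, and the acute-phase proteins among them are those whose synthesis changes during inflammation. Interleukin 6 and related cytokines act through STAT3 and, with interleukin 1 and glucocorticoids, through C/EBP factors to raise the transcription of A2m, Hp and Orm1 in rat liver. Albumin and the fetuin Ahsg are negative acute-phase proteins in this species. Several of these genes are also active outside the liver: Apoe in macrophages and glia, Ttr in the choroid plexus, Hp in epithelia and Cp in astrocytes.

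For 4 genes the array holds several probes, and how these compare bears on the results. The 2 probes of Alb and 2 of Ahsg printed here were designed on different stretches of the same RNA and are shown because they moved together in 1 pup. One of each pair covers a longer stretch of rn3, the rat genome build of the files, than its 60 bases, 1676 bases for Alb and 1621 for Ahsg.
Alb, chr14:19138670-19140345, minus strand: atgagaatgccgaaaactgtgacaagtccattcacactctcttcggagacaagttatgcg
Alb, chr14:19137676-19137735, minus strand: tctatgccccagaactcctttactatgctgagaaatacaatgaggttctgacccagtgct
Ahsg, chr11:80389525-80391145, minus strand: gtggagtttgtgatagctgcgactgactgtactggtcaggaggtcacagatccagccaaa
Ahsg, chr11:80389424-80389483, minus strand: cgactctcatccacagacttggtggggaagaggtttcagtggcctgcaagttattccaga

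The 2 Hp probes differ in what they can detect. The first was designed on the messenger RNA, while the second was designed on a genomic record of the first exons and holds, from base 40, the letters of a splice donor, in capitals.
Hp, chr19:39448210-39448269, minus strand: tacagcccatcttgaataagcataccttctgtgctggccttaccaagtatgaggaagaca
Hp, chr19:39450602-39450661, minus strand: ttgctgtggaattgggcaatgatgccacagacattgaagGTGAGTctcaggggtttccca

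The markers of the labelled tissue were present. All 6 markers of mature olfactory sensory neurons and all 5 of sustentacular cells that had a probe were above background on at least 0.5 of the arrays at each age. The summed neuron marker level lay between 10.0 and 11.0 in newborn, 11.8 and 12.1 in adult and 12.7 and 13.0 in old rats. Adult arrays were scanned on 2 days of their own with an earlier release of the extraction software, so adult rats and these settings cannot be told apart. L1 pups and old rats shared 1 scan day, and L1 minus old is given beside newborn minus old where they part. A pair of pup libraries, 12 of L1 and 24 of L2, stood apart from their litter mates in these genes, and results are also given without them.

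Among the protease inhibitors, A2m, a broad-range inhibitor that traps proteases, had its highest levels in newborn rats. Its probe lies at chr4:158398254-158398313 on the plus strand of rn3. The pups ranged from 7.64 to 11.28 with a median of 8.90. The adult rats 13 to 16 stood at 6.92, 6.85, 7.49 and 6.09 and the old rats 17 to 20 at 7.10, 7.25, 7.26 and 7.26. No pup was as low as any adult or old rat. The newborn mean was 9.02 ± 0.89 (SD, n = 19), 2.18 log2 above adult (SE 0.28), or 4.54-fold, and 1.80 above old (SE 0.28). Here and below, the SE rests on scatter within groups and leaves out the scatter between litters. Litter means ran from 8.16 in L1 to 10.11 in L2, a range of 1.96 against a median of 0.45 over all transcripts expressed in every group. Within the shared scan day the excess of L1 over old rats was 0.94 (SE 0.23).

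Hp, haptoglobin, which binds free haemoglobin, followed the same order of ages. The pups lay between 3.43 and 5.97, with a median of 4.50, and the highest were pup 12 at 5.97 and pup 24 at 5.66. The adult rats stood at 1.49, 2.02, 2.09 and 2.83 and the old rats at 2.73, 2.24, 2.77 and 2.19, below every pup. The newborn mean of 4.60 ± 0.68 exceeded that of adult rats by 2.50 (SE 0.32), or 5.64-fold, and that of old rats by 2.12 (SE 0.32). Adult and old rats overlapped. The second probe was above background on 19 of 35 arrays: 18 of 19 pups, 1 of 8 adult and 0 of 8 old arrays. It differed by 2.46 and 2.07 in the same contrasts, with adult and old signals mostly below background. Because no old array measured it, its excess over old rats is only a bound, at least 3.22-fold when scaled by the array median, taken as for Orm1 below. Over the 27 rats the 2 probes correlated at r = 0.98.

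Orm1, an acute-phase lipocalin that carries drugs and steroids, was dim at every age (probe chr5:80331638-80331697, plus strand). It was above background in 18 of 19 pups, on 3 of 8 old arrays and on no adult array. Pup levels ran from -2.06 to -0.43 with a median of -0.97, above all 4 adult rats, which lay between -3.31 and -2.85. Because no adult array measured it, the newborn excess over adult is only a bound, at least 2.38-fold when scaled by the array median. For this bound the adult level was taken, per array, as the higher of its own signal and the dimmest signal well above background. With normexp background correction and quantile normalization the newborn difference from adult, 1.92 (SE 0.22), shrank to 0.34, so the bound does not hold there. Old rats, at -1.70, -1.84, -2.53 and -2.59, overlapped with the pups.

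Fetub, a fetuin and inhibitor of astacin-type proteases, and A1bg, a secreted protein of the immunoglobulin family, had their highest levels in old rats. Fetub (chr11:80334739-80334798, minus strand) lay between 3.03 and 4.04 in pups, with a median of 3.63, and stood at 3.43, 3.02, 3.45 and 3.15 in adult and 5.03, 5.24, 4.78 and 5.07 in old rats. The old rats were above all 23 others. Newborn minus old was -1.47 (SE 0.15) and adult minus old -1.77 (SE 0.19), or 3.40-fold, whereas newborn and adult rats overlapped, with a difference of 0.29 (SE 0.15).

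A1bg (chr7:97834682-97834741, minus strand) climbed in steps that did not overlap, from pups to adult to old rats. It ranged from -2.89 to -0.44 in pups, with a median of -1.21, and was above background in 12 of 19. It stood at 0.24, 0.52, 0.55 and 1.18 in adult and at 2.32, 2.30, 2.05 and 2.32 in old rats. Newborn minus adult was -1.99 (SE 0.26) and newborn minus old -3.61 (SE 0.26), a 12.2-fold difference and the widest of the members expressed in every group. With normexp background correction and quantile normalization these were -0.73 and -1.71. Both this order and that of the summed neuron markers ran from newborn to old, and the part of the cell makeup in it was not tested.

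Apoe, the lipid carrier of glia and macrophages, was bright everywhere (chr1:79081906-79081965, minus strand). The pups lay between 9.31 and 10.87, with a median of 10.41. The adult rats stood at 10.79, 10.20, 9.81 and 9.90 and the old rats at 11.22, 11.08, 11.07 and 11.27, above every younger rat. Newborn minus old was -0.93 (SE 0.22) and adult minus old -0.99 (SE 0.29). The first kept its size under quantile normalization, at -1.02, but the second shrank to -0.30, and newborn minus adult moved from 0.05 to -0.72. Summed markers of ensheathing and Schwann cells lay between 6.88 and 10.2 in newborn, 7.85 and 8.80 in adult and 8.67 and 9.20 in old rats. The macrophage sums were 7.78 to 9.13, 7.51 to 8.15 and 8.64 to 9.13. S100b was above background on no array, and the part of these cells in the Apoe difference was not tested.

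Cp, the copper-binding ferroxidase ceruloplasmin, was measured by 1 of its 4 probes only (chr2:105063487-105063543, plus strand), above background on 34 of 35 arrays. There pups ran from -1.98 to 0.10 with a median of -0.99, the adult rats stood at -0.38, 0.39, 1.46 and 0.91 and the old rats at 0.32, -0.95, -0.07 and -0.03. Newborn minus adult was -1.60 (SE 0.30), and -0.65 with normexp background correction and quantile normalization, with overlap between the highest pup, 24, and the lowest adult. The other 3 probes were above background on 5, 1 and 0 arrays. The first of these is named for bilitranslocase and runs on the opposite strand, and the last 2 share 20 bases. Their correlations with the leading probe were 0.11, 0.18 and -0.17, so the Cp values rest on 1 probe.

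**Figure D1:**
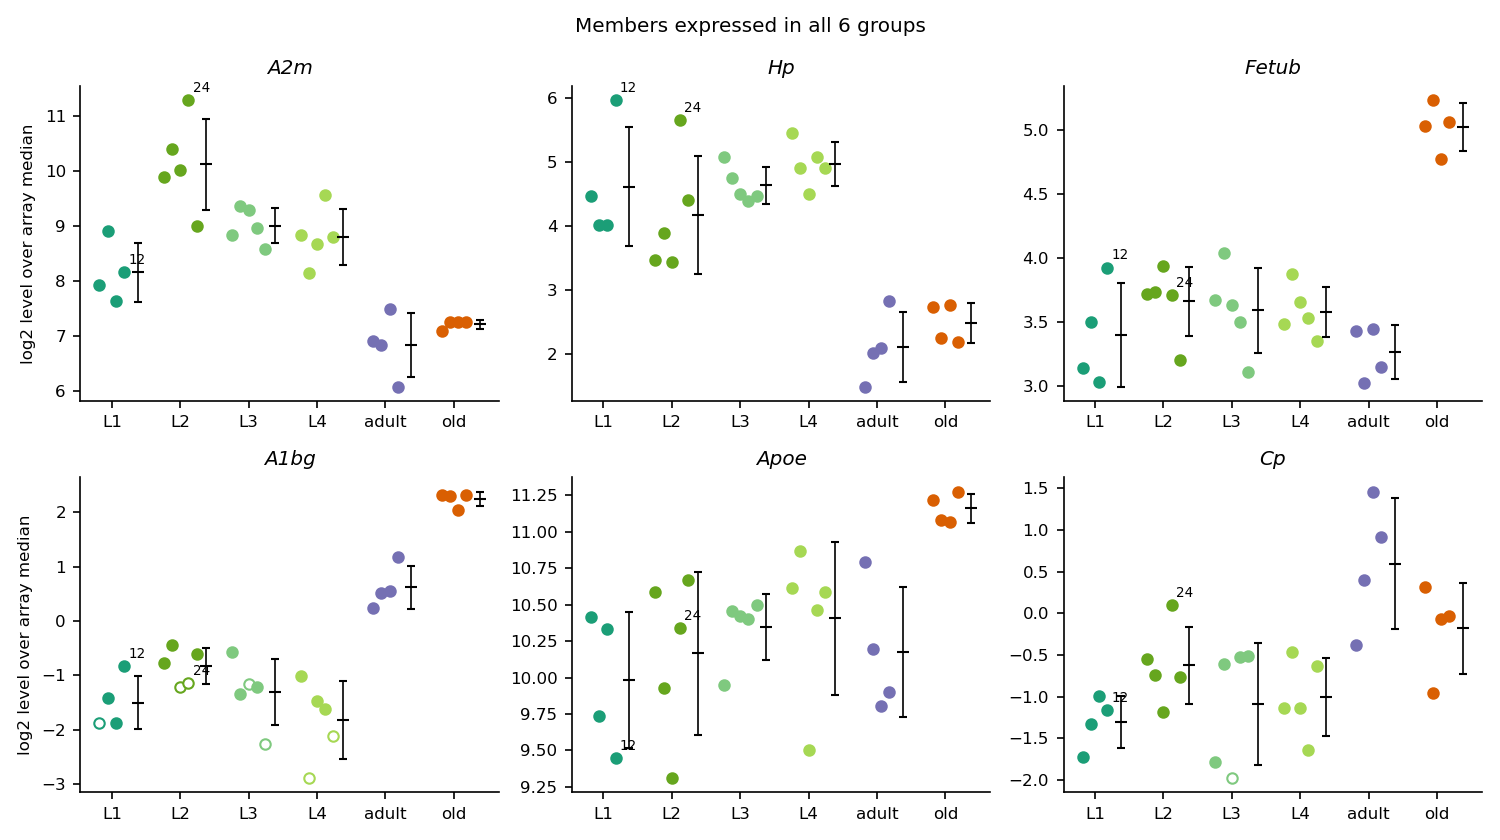
Log2 level over the array median (vertical axis, scaled per panel) of the 6 members expressed in all 6 groups, with 1 point per rat, filled where at least 1 array was above background, and the group mean with its SD as a black bar. A2m and Hp were higher in every pup than in adult or old rats, and Fetub, A1bg and Apoe were highest in the 4 old rats, with pups 12 and 24 numbered.

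Members counted as expressed in every group were above background on at least 3 arrays of each litter and 6 of the 8 arrays of adult and of old rats. In all, 6 of 10 members met this, A2m, Hp, Fetub, A1bg, Apoe and Cp, and 23668 transcripts did. In the limma fit over those transcripts, with a Benjamini-Hochberg adjusted p under 0.01 as the call, 2 members were past the call higher in newborn than adult rats, where 40.1% of all transcripts were, and 2 lower, where 26.1% were. Against old rats 2 were past it higher in newborn, with 28.3% of all transcripts, and 3 lower, with 31.5%. None was past it higher in adult than old rats, with 15.5%, and 3 lower, with 32.0%. The rats of the groups did not overlap for 3 of 6 members between newborn and adult (39.1% of all transcripts), 5 of 6 between newborn and old (31.6%) and 3 of 6 between adult and old (57.3%). Nothing is read from these counts, because the rule used the same contrasts. The median difference over all transcripts, to which each value is relative, was 0.16 for newborn minus adult, -0.03 for newborn minus old and -0.19 for adult minus old.

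**Figure D2:**
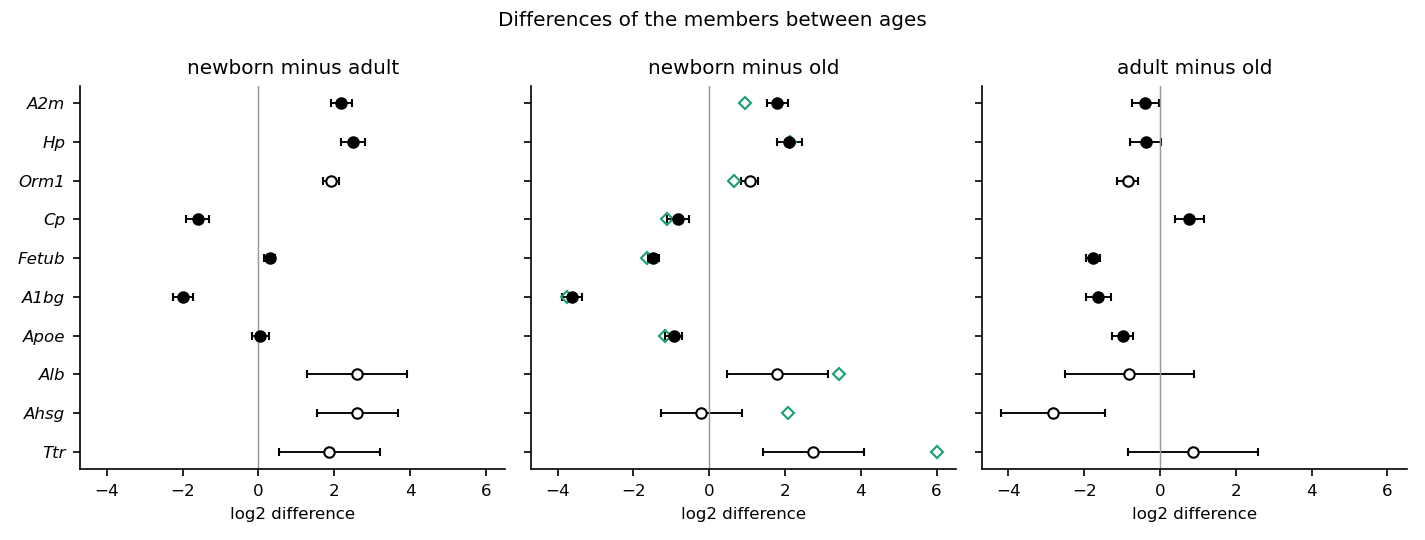
Log2 difference between ages (horizontal axis) with its SE for each member, filled for the 6 expressed in every group and open for the others, and, as green diamonds, L1 minus old rats on 1 scan day. A1bg spans the widest range of the filled points, down to -3.61, and the diamonds leave the pooled value for A2m, at 0.94 against 1.80, and for Alb, Ahsg and Ttr, whose L1 mean includes pup 12.

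Alb, the main carrier of plasma, and Ahsg, a fetuin that binds calcium phosphate, were near the floor in nearly all rats. The leading probe of Alb was above background in 4 of 19 pups and on none of 16 adult and old arrays, and that of Ahsg in 2 pups and on 1 old array. The exception was pup 12 of L1. Its 3 Alb probes read 6.31, 3.75 and 4.35 and its 2 Ahsg probes 4.72 and 4.98. In the other 18 pups no leading Alb probe exceeded -1.24 and no leading Ahsg probe -2.37. All 5 probes were thus raised together in 1 library, and the other 3 were above background in that library alone.

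Ttr, a carrier of thyroxine, was the most uneven member (chr18:12434403-12434462, plus strand). It was above background in 13 of 19 pups, on 3 of 8 adult and 4 of 8 old arrays. Pup 12 stood at 8.64, pup 9 of the same litter at 4.67 and pup 31 of L4 at 3.07, whereas no other pup exceeded 0.67 and the median was -1.02. The adult rats lay between -2.93 and -1.72 and the old rats between -4.21 and -1.68. Newborn minus adult was 1.87 (SE 1.34) and 1.39 without pup 12, and L1 minus old was 6.01 (SE 2.46). Summed choroid plexus markers were 7.84 in pup 12 and up to 8.34 in other pups.

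**Figure D3:**
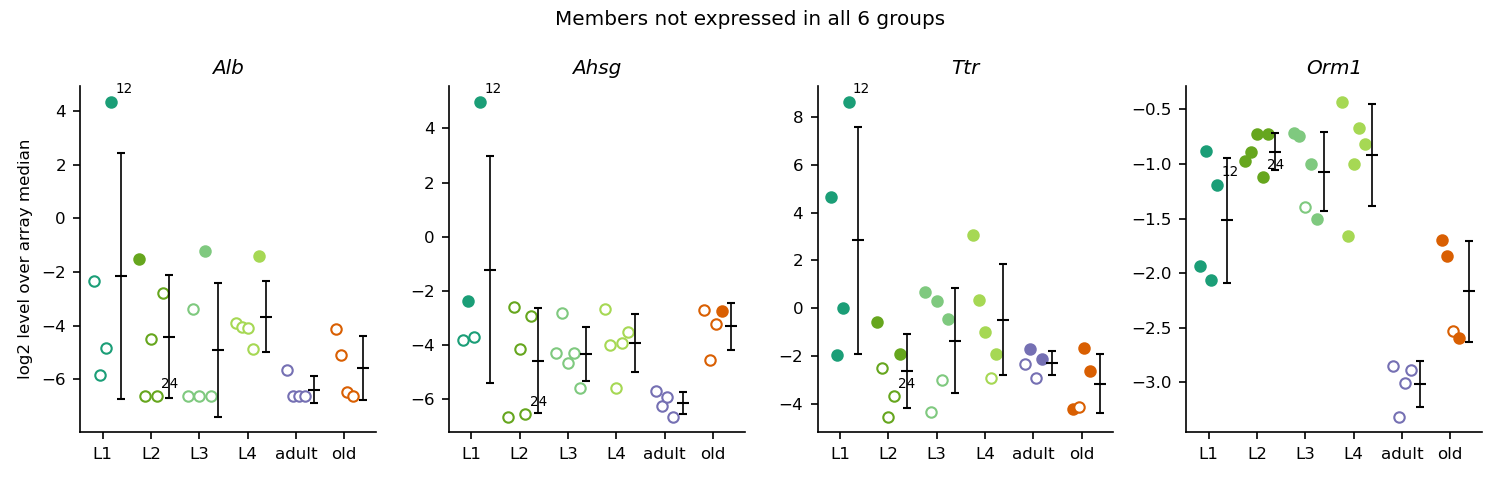
Log2 level over the array median (vertical axis, scaled per panel) of the 4 members not expressed in all 6 groups, with 1 point per rat, open where no array was above background, and the group mean with its SD in black. Pup 12 stands alone for Alb at 4.35, Ahsg at 4.98 and Ttr at 8.64, and Orm1 was below background in all 4 adult rats.

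Other plasma protein genes were raised in pup 12 too. Of the 51 genes of a separate list of plasma proteins that were above background in at least 1 pup, 25 (49.0%) had their highest level of the 19 pups there, against 5.68% of all 31763 such transcripts. For 19 of them the gap to the next pup was over 2-fold, against 0.749% of all such transcripts. Fgb, Gc, Pzp, Serpinc1, Itih1, Apcs and Crp were above background in pup 12 alone. They passed the filter only through it, so their place was all but fixed. Pup 12 was itself picked for its levels, and nothing is read from these shares. Afp, the fetal counterpart of albumin, stood at 7.29 against at most -0.98 in other pups. The fibrinogen chains Fgb, Fga and Fgg stood at 4.53, 3.14 and 2.94 against at most -2.62, -0.65 and -0.29. Apoh, a phospholipid-binding protein, stood at 2.87 against -1.82, and Ambp, the precursor of bikunin, at 3.90 against 0.88. Plasma protein genes above background in all 19 pups were mixed. Fgg was among them, and Hpx, a haem carrier, stood at 1.90 against at most 1.21. Others were not raised. Serpina1 stood at 7.23 in pup 12 with a median of 7.52 in the others, Clu at 6.81 with 7.37 and Pon1 at 5.09 with 5.35, whereas Tf, the iron carrier transferrin, stood at 8.33 with a median of 6.96 and a maximum of 8.55. Among the 9 non-secreted hepatocyte genes with a probe, Cps1 and Cyp7a1 were above background on no array, and the summed level was 3.26 in pup 12 against up to 3.93 in other pups. The genes named here for pup 12 were singled out after their values were seen.

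In pup 24 of L2 the cytokines and factors of the acute-phase response stood out instead. Of 39 inducers and factors above background in a pup, 21 (53.8%) had their highest level there, against 11.3% of all transcripts. Il6, Il1a, Osm and Osmr passed this filter only through pup 24, so their place was all but fixed. The pup was picked after its values were seen, and nothing is read from this share. Il1b stood at 9.51, with a median of 2.16 and a maximum of 5.92 in the other 18 pups, Il1rn was 3.66 above the next pup, and Il6 stood at -0.03 against at most -4.38, the one pup with Il6 above background. Of their response genes, Socs3, the feedback inhibitor of STAT3, was 2.30 above the next pup, Cebpd stood at 8.36 against 6.46 and Nfkbia at 9.00 against 7.07. The other plasma proteins did not stand out as a set. Of 51 above background in a pup, 7 (13.7%) were highest in pup 24, near the 11.3% of all transcripts. Only 2 were so by over 2-fold, Lrg1 at 5.44 against 3.32 and Lcn2 at 9.11 against 7.87. Fgg at -1.33 and Itih3 at -0.31 lay below the medians of the other pups, -0.66 and 2.01. A2m at 11.28 and Cp at 0.10 were the highest of all pups and Hp the second, but Orm1, at -1.12, was below the median of the other pups, -0.93. Neutrophil markers summed to 7.72 in this pup against up to 6.94 in others, and macrophage markers to 9.13 against 8.45. Pup 28 of L3, on the same slide, had A2m at 9.29 and Il1b at 2.03. The part of these cells was not tested.

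**Figure D4:**
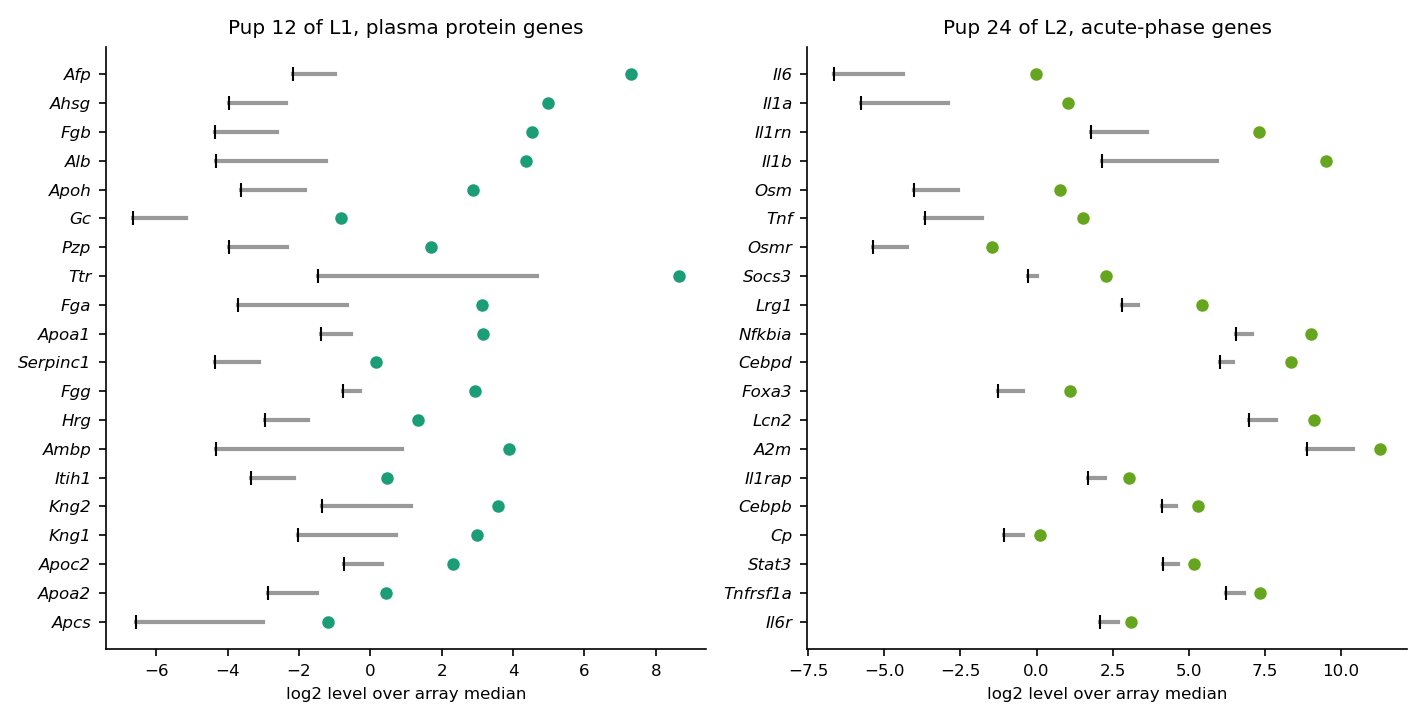
Log2 level over the array median (horizontal axis) in 1 pup (point) beside the median (tick) and the highest (end of the grey line) of the other 18 pups, for the 20 genes with the widest gap. Members and other plasma proteins are shown for pup 12, and these with the inducers and factors for pup 24. Ahsg, Alb and Ttr lie among secreted liver proteins on the left, and A2m and Cp lie below the cytokines on the right.

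Without both pups the newborn differences changed little for A2m (2.11 against adult, 1.73 against old) and Hp (2.29 and 1.91). Those of Alb were 2.20 and 1.40, Ahsg 2.22 and -0.61 and Ttr 1.45 and 2.33. Alb and Ahsg were below background in most rats, so their values depend on the floor and measure no excess. With all pups, the 75th percentile as the scale took newborn minus adult from 2.61 to 0.90 for Alb and from 2.61 to 0.72 for Ahsg. The calls in the fit over all transcripts remained at 4 of 6 members for newborn against adult, 5 for newborn against old and 3 for adult against old.

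Rats of one group differed more in these genes than in most. The SD within litters was 0.67 for Hp, 0.58 for A2m, 0.56 for A1bg, 0.53 for Cp, 0.46 for Apoe and 0.31 for Fetub, whereas the median over the 23668 transcripts was 0.21. Among those transcripts Hp lay at percentile 97.2, A2m at 95.5, A1bg at 95.1, Cp at 94.2, Apoe at 91.4 and Fetub at 76.1.

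Sides A and B of the same rat, which the choice of genes had not used, were compared in the 8 adult and old rats by limma with the rat as a block. No transcript of 23668 was called (0.0%), and 1537 (6.49%) had an unadjusted p under 0.05, none of them a member. The difference A minus B was 0.11 (SE 0.15) for A2m, 0.09 (SE 0.14) for Hp, 0.14 (SE 0.08) for Fetub, 0.12 (SE 0.10) for A1bg, 0.01 (SE 0.12) for Apoe and -0.21 (SE 0.20) for Cp, with adjusted p between 0.907 and 0.999. The median size of the difference between sides was 0.45 for Hp, 0.36 for A2m and 0.16 for Fetub, against 0.13 over all transcripts.

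The transcripts closest to each member over the 27 rats, after subtracting the mean of each group, were sought among those expressed in every group. For Apoe they were Npy, a peptide of ensheathing glia (r = 0.97), and Apod, another lipid carrier of glia (r = 0.97), and both values stayed at or above 0.96 without pup 12 or 24. For Hp they were Enpp3, an ectonucleotidase (0.94), and Noxa1, an activator of an NADPH oxidase (0.92). For A2m they were Alox12e, an epidermal lipoxygenase (0.91), and Oxt (0.85). Fetub came nearest to the odorant receptors Or55b4 and Olr1571 (both 0.85), A1bg to Stat4 and Kyat1 (both 0.79) and Cp to Casp12 (0.79) and Il15 (0.78). For Orm1 they were Pdzk6 (0.85) and Phtf1 (0.84). Those of Ahsg, Mcm6 (0.84) and Ccpg1 (0.83), fell to 0.65 and 0.68 without pup 12, and those of Alb, Rxrg (0.75) and Ldb2 (0.68), to 0.59 and 0.60. For Ttr they were Bai3 (0.77) and Gucy1a1 (0.69), at 0.78 and 0.59 without that pup. Without subtraction, so that age enters, the nearest were Pdlim3 and Dnajc2 for A2m (0.93 and 0.92), Gpr120 and Usp43 for Hp (0.97 and 0.95), Or1i2 and Ldhb for Fetub (both 0.93), Stoml3 and Trim50 for A1bg (both 0.96), Apod and Art3 for Apoe (0.96 and 0.88), Serping1 and Chp1 for Cp (0.86 and 0.85), and Cldn23 and Ptma for Orm1 (both 0.94). For Ttr they were Gng7 and Bai3 (both 0.79, and 0.64 and 0.78 without pup 12), for Ahsg Tor3a and Apoc2 (0.82 and 0.73, but 0.38 and 0.45 without pup 12) and for Alb Agrp and Mcm6 (both 0.66, but 0.47 and 0.40 without pup 12). All rats share 1 array design and these values come without a test.

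RefSeq promoter windows of build GRCr8 were at hand for 7 of the 10 members, all but A2m, Hp and Fetub, and the 250 bases before each start were searched for motifs on both strands. CTGGGAA, the core of the type II interleukin 6 response element, was in 9.56% of all 33469 windows and, among the members, in those of Ahsg and Ttr. TTGCNNAAT, bound by C/EBP factors, was in 2.26% and in that of A1bg. The window of Ahsg, whose probes were raised in pup 12, is printed with the match, on the reverse strand, in capitals. A match is a description of the letters and not of a bound site.
Ahsg, GRCr8 chr11:91632584-91632833, minus strand: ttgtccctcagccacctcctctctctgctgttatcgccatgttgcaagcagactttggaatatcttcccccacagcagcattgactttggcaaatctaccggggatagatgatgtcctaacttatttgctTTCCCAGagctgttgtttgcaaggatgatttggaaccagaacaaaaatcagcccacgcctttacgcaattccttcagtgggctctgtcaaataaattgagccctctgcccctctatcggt

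Other plasma proteins were tested gene by gene, and of 57 genes with a probe 29 were expressed in every group. Serpina3n, a serine protease inhibitor of the acute phase, had the steepest course: its mean was 3.67 ± 1.09 (SD, n = 19) in newborn, 7.93 ± 0.34 (n = 4) in adult and 9.23 ± 0.20 (n = 4) in old rats. It was 19.2-fold lower in newborn than adult rats (limma, adjusted p = 1.12e-11) and 47.2-fold lower than in old rats (adjusted p = 1.51e-13). Against adult rats 8 of 29 genes were higher in newborn (40.1% of all transcripts), led by Lcn2, an iron-siderophore carrier (1.63 on the log2 scale), the clotting factor F10 (1.49) and Lrg1, a leucine-rich glycoprotein (1.28), with limma adjusted p of 6.61e-05, 8.59e-06 and 0.00408. Lower were 6 (26.1% of all transcripts), with Agt, the precursor of angiotensin (2.70-fold), and Azgp1, a lipid-mobilizing glycoprotein (2.48-fold), after Serpina3n (adjusted p = 0.000133 and 0.00764). The call of Azgp1 was lost in 12 of 43 alternatives, among them leaving out any 1 adult rat, and that of Lrg1 in 7 of 43, among them leaving out adult rat 13 or 14. Under quantile normalization the split was 8 higher and 9 lower.

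Against old rats, 11 of the 29 were lower and 2 higher in newborn, where 31.5% and 28.3% of all transcripts were. The lower ones were led by Serpina3n, Pon1, a lipoprotein-bound lactonase (6.45-fold, limma adjusted p = 1.95e-12), and Azgp1 (6.37-fold, adjusted p = 5.42e-06). The higher ones were Apoc1 (1.66-fold, adjusted p = 0.00262) and Apom (1.27-fold, adjusted p = 0.00294), both apolipoproteins, and neither was called between L1 and old rats on 1 scan day, where 9 were lower. Over all alternatives the call was lost in 8 of 44 for Apoc1 and 6 of 44 for Apom. Between adult and old rats 9 of the 29 were lower and none higher in adult, beside 32.0% and 15.5% of all transcripts. The 9 were led by Lrg1 (4.37-fold), Apoc2, the cofactor of lipoprotein lipase (2.97-fold), and Apod (2.97-fold). Their limma adjusted p were 0.000661, 0.00438 and 0.00821. The call was lost in 13 of 42 alternatives for Apod and 7 of 42 for Apoc2, in both without adult rat 14 or 16 or old rat 17 or 18, and in 1 of 42 for Lrg1. The 9 genes fell to 5 without any 1 of adult rats 14 and 16 and old rats 17 and 18, and to 4 with scan day as a random block. The list median was 0.05, -0.22 and -0.55 in the 3 contrasts, beside 0.16, -0.03 and -0.19 over all transcripts.

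**Figure D5:**
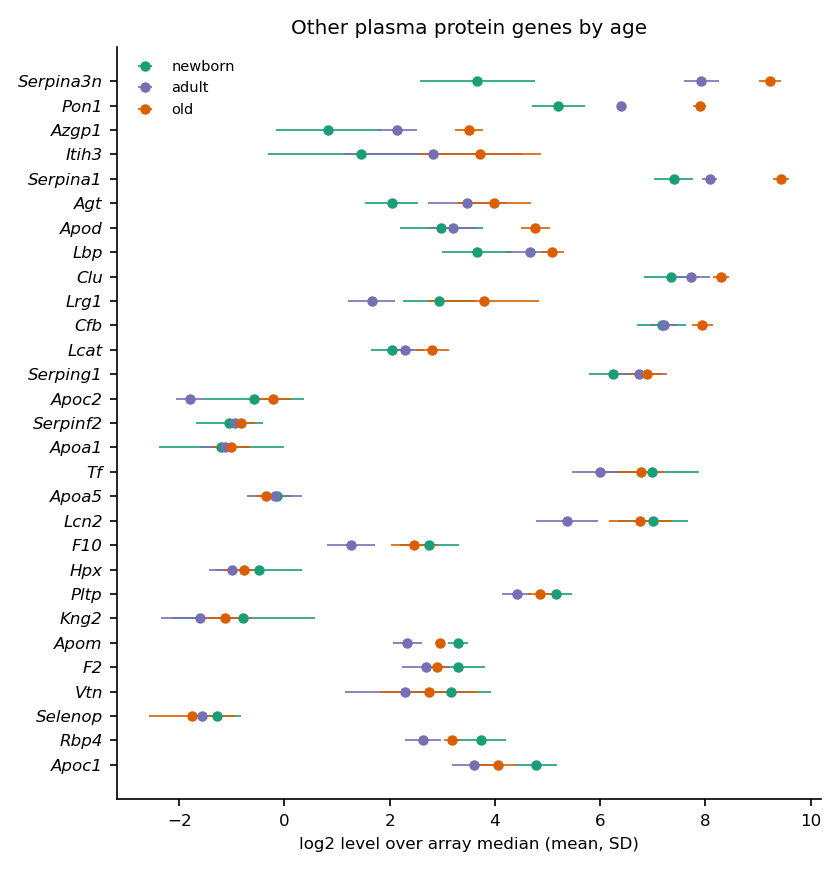
Mean log2 level over the array median with its SD (horizontal axis) in 19 newborn, 4 adult and 4 old rats for the 29 other plasma protein genes expressed in every group, ordered by newborn minus old. Serpina3n has the widest separation, from 3.67 in newborn to 9.23 in old rats, and Apoc1, at the bottom, is the gene highest in newborn relative to old.

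Of the cytokines, receptors and factors of the acute-phase response, 42 had a probe and 27 were expressed in every group. Of all transcripts, 40.1% were higher and 26.1% lower in newborn than adult rats, and 28.3% and 31.5% against old rats. Higher in newborn than adult rats were 6, led by Nfkbia, the inhibitor of NF-kappaB (2.36-fold), Il1r1 (1.87-fold) and Tnfrsf1a, receptors for interleukin 1 and tumour necrosis factor (1.68-fold), with limma adjusted p of 7.37e-05, 9.40e-05 and 8.97e-07. Lower were 5, led by the kinase Jak1 (2.03-fold), the glucocorticoid receptor Nr3c1 (2.02-fold) and the interleukin 6 receptor Il6r (1.86-fold), with adjusted p of 3.38e-09, 3.24e-10 and 6.71e-06. Quantile normalization gave 4 higher and 8 lower. Against old rats 14 of 27 were lower in newborn, led by the circadian factors Dbp (2.76-fold) and Hlf (2.46-fold) and the cytokine Ctf1 (2.18-fold), with limma adjusted p of 4.80e-12, 9.59e-09 and 7.87e-10. Only Cntf was higher (1.56-fold, adjusted p = 1.63e-07), and it was not called within the shared scan day. Il6st, the signalling subunit shared by the interleukin 6 family, had means of 4.14, 4.18 and 5.02 in newborn, adult and old rats, and was lower in newborn and adult than in old rats.

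Between adult and old rats 12 of these genes were lower in adult and 2 higher. Il1b was 7.67-fold lower (limma adjusted p = 0.00870), Nfkbia 2.66-fold (0.000465) and Ctf1 2.48-fold (1.10e-08), whereas Jak1 was 1.63-fold higher (8.05e-05) and Nr3c1 1.45-fold (0.000335). The Il1b call was lost in 26 of 42 alternatives, among them the 75th percentile as the scale and leaving out old rat 17 or 19. The 2 probes of Jak1 and of Il1r1 differed, since their mean gave -0.00213 for Jak1 in place of 0.70, and 0.08 for Il1r1 between newborn and adult rats in place of 0.90. Foxa2 and Onecut1, liver-enriched activators, were above background on 0 and 1 of the 35 arrays. The array with Onecut1 was that of pup 12, at -1.93 against at most -2.37 in other pups. Hnf4a, a factor of the same kind, was also highest there, at 0.04 against at most -0.25. These were the only 2 of 39 inducers and factors highest in pup 12 (5.13%, against 5.68% of all transcripts). The list median was 0.19, -0.36 and -0.54 in the 3 contrasts, and without both pups 13, 17 and 17 genes were called in place of 11, 15 and 14.

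Of the receptors and partners of the members 34 had a probe and 29 were expressed in every group. Their counts stand beside the shares of all transcripts, 40.1% higher and 26.1% lower in newborn than adult, 28.3% and 31.5% against old and 15.5% and 32.0% in adult against old rats. Of the 29, 11 were higher and 6 lower in newborn than adult rats (8 and 11 under quantile normalization), 9 and 14 against old rats, and 2 and 15 in adult against old rats (3 and 8 under quantile normalization). Among iron handling genes the exporter Slc40a1 was 3.35-fold higher in newborn than adult and 3.71-fold higher than in old rats (limma adjusted p = 3.73e-12 and 1.61e-12), and Ftl1, the ferritin light chain, exceeded its adult level 3.35-fold (adjusted p = 7.67e-16). Ftl1 was in turn 2.71-fold lower in adult than old rats (adjusted p = 2.86e-11). Heph, a ferroxidase related to Cp, was 3.51-fold higher in newborn and 2.30-fold higher in adult than in old rats (adjusted p = 1.43e-10 and 9.68e-06).

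Of the receptors that take up lipoproteins and carriers, Lrp2, or megalin, was 3.35-fold lower in newborn than adult and 2.80-fold lower than in old rats (limma adjusted p = 1.52e-08 and 3.00e-07). Abcg1, a cholesterol exporter, was 2.34-fold and 2.70-fold lower (adjusted p = 5.20e-10 and 5.68e-11), and the copper transporter Atp7b 1.71-fold lower than in adult rats (adjusted p = 0.000495). Thrb, a thyroid hormone receptor, was 2.67-fold lower in newborn and 2.59-fold lower in adult than in old rats (adjusted p = 2.27e-08 and 3.19e-06), but neither was called on the mean of its 2 probes. Asgr1, a receptor for desialylated glycoproteins, was 2.94-fold lower in adult than old rats (adjusted p = 1.13e-06), and Lrpap1, the chaperone of the lipoprotein receptors, 2.03-fold higher (adjusted p = 5.87e-08, not called on the mean of its 2 probes). Lrp1, which takes up A2m bound to proteases and particles carrying Apoe, had means of 4.60, 3.98 and 3.51 in newborn, adult and old rats, and was called higher in newborn than in either. The list median was 0.27, -0.29 and -0.45 in the 3 contrasts.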

How the data were processed

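The authors hybridized RNA of the olfactory epithelium to Agilent whole rat genome arrays with 1 dye and deposited the Feature Extraction files, in which the intensity of a spot is background-subtracted and not normalized between arrays. They also deposited a matrix of ratio values, divided by array median and by probe, in which 201310 values stand at 0.01. It was used as an alternative. An array held 45018 spots, of which 43379 were not controls, for 41012 probes. Repeated spots were averaged after leaving out 3294 outlier values. Signals were divided by the array median, raised to at least 0.01 and taken to log2. The 2 arrays of a rat were averaged. File headers gave 10 slides and 5 scan days. The number of arrays limits the precision. Rats were separate animals, but pups shared a litter. Each SE and p-value of the main fit rests on scatter within the 6 groups, so scatter between litters is left out. This scatter is pooled, so pups enter the SE of adult minus old differences too. With litter means as replicates, 8114 transcripts were called higher and 5069 lower in newborn than adult rats, in place of 9502 and 6177.

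Levels were fitted with limma 3.58.1 (R 4.3.3) over 6 groups, newborn being the mean of the 4 litters, with Benjamini-Hochberg adjustment over the 23668 transcripts expressed in every group and a call at an adjusted p under 0.01. Sides were fitted with the rat as a block. The fits were tested on simulated data. Symbols came from the files, or from RefSeq for 10735 accessions. Of several probes, a gene's leading one had the highest mean level over the arrays. The members and lists were chosen with earlier results of these data known. All members are named, and of each other list and contrast the 3 called genes with the largest difference each way and the 2 nearest transcripts by correlation. The genes given for pups 12 and 24, and Il6st, Foxa2, Onecut1, Lrp1 and Mug1, were named after their values were seen. Some genes of the lists are not reported here. Alternatives were other scalings (75th percentile, quantile, normexp with offset 50), the authors' matrix, the order of floor and scaling, arrays with rat as a random block, litter means, the methods' t-test, other filters, slide or scan day as a random block, L1 against old rats, the mean over probes and leaving out rats.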

Additional observations from a re-analysis of the deposited data

Results flagged for a closer look

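In 5 of 60 groups of member levels, 1 rat lay farther from the others than Dixon's 95% limit allows, where chance gives about 1 in 20 groups. In L1, Ahsg stood at 4.98 in pup 12 and between -3.83 and -2.37 in its litter mates. In L4, Alb stood at -1.39 in pup 35 and between -4.88 and -3.89 in the others, and in L3 Apoe stood at 9.95 in pup 26 and between 10.41 and 10.50 in the others. Among old rats A2m stood at 7.10 in rat 17 and between 7.25 and 7.26 in the others, and A1bg at 2.05 in rat 19 and between 2.30 and 2.32.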

How the results depend on the processing

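Of the counts of called genes, those between adult and old rats moved most. The 9 other plasma proteins became 5 with slide and 4 with scan day as a random block, and 5 to 10 when single rats were left out. The 14 inducers and factors became 9 with scan day as a random block. The 17 receptors and partners became 11 with scan day as a random block and also 11 under quantile normalization. Among called differences 1 sign turned: Jak1 in adult against old rats, 0.70 on its brighter probe, was -0.00213 on the mean of its 2 probes. Signs also turned for 3 member differences that were not called. A2m in adult minus old rats went from -0.38 to 0.08 and Apoe in newborn minus adult rats from 0.05 to -0.72 under quantile normalization. With the 75th percentile Apoe went to -0.08 and Ahsg in newborn minus old rats from -0.21 to 0.18, and both turned under further alternatives, Ahsg reaching 2.08 between L1 and old rats. Leaving out single rats kept the members past the call at 4 for newborn against adult, 5 to 6 for newborn against old and 2 to 3 for adult against old. Leaving out pups 12 and 24, an alternative chosen after seeing the data, gave 14, 14 and 10 other plasma proteins. The adult minus old differences were the same without these pups, and only the variance, pooled over all groups, and the calls changed. The cause of the other changes was not tested. No paired analysis was possible because the groups share no rat numbers. Members below background have levels that depend on the floor: Ahsg in newborn against adult rats moved from 2.61 to 0.72 with the 75th percentile as the scale.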

Other observations

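Mug1, a relative of A2m and a gene not expressed in every group, entered no test. It was above background in 16 of 19 pups, on 0 of 8 adult and on 1 of 8 old arrays, with pup levels from -2.49 to 2.20.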
